A study of Mus musculus with 6 samples.

Results

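Interleukin-1 (IL-1) family cytokines and receptors, with the IL-33 receptor ST2, were examined in bone marrow mesenchymal stem cells (MSCs). The cells came from mice with a conditional knockout of Pcif1, the gene of the cap methyltransferase PCIF1, and from littermate controls. The genes were 10 named ones: the receptors Il1rl1 (ST2), Il1r1 and Il1r2, the shared coreceptor Il1rap, the cytokines Il33, Il1a, Il1b and Il18, the antagonist Il1rn and the binding protein Il18bp. Of these 10, 9 had a row among the 20071 Ensembl IDs counted, and 7 were among the 13733 genes that passed the expression filter and were tested. The level of Il1b was not analysed here. The list was selected on the genotype contrast of these same libraries, so the fold changes of its genes are descriptions and carry no p-value.

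MSCs were taken from femurs of 6-week-old mice on a C57BL/6J background and kept for 7 days in osteogenic medium (dexamethasone at 100 nM, β-glycerophosphate at 5 mM and ascorbic acid at 50 μg/mL). The control group, labelled WT, came from Pcif1fl/fl mice, which carry the loxP-flanked Pcif1 alleles without a recombinase. The knockout group, labelled CKO, came from Prrx1-Cre;Pcif1fl/fl littermates, in which Cre is driven by a promoter active in limb mesenchyme, so blood-derived cells in these cultures are outside its usual reach. Poly(A) RNA of 3 libraries per group was sequenced. The labels number 3 libraries per group whereas the design text speaks of duplicates, and nothing ties a library to an animal, so p-values measure the spread between these libraries, which may be technical. The sex of the mice behind each library was not given in the sources used here.

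IL-1 family receptors are paired chains: a ligand binds its own receptor (IL-1 to IL-1R1, IL-33 to ST2), the complex recruits the coreceptor encoded by Il1rap, and the joined intracellular domains call in MyD88 and IRAK kinases to activate NF-kB and MAP kinases. The pathway is held in check by several brakes. The product of Il1rn occupies IL-1R1 without signalling, IL-1R2 is a decoy that binds IL-1 and passes on no signal, IL-18BP neutralises IL-18, and a soluble form of ST2 captures IL-33. In bone, IL-1 is known as a driver of osteoclast formation and matrix breakdown, while ST2 is best known on mast cells, type 2 lymphocytes and regulatory T cells.

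Il1rl1 and Il1rn, the genes with the widest differences of the family, each have forms that begin at separate starts, and the sequence before these starts is shown for that reason. In GENCODE release M21 (GRCm38), Il1rl1 (ENSMUSG00000026069, chr1:40429570-40465415, plus strand) has 5 transcripts, of which 2 hold 1701 coding bases, the length of membrane-bound ST2, and 2 hold 1011, the length of the soluble form. Il1rn (ENSMUSG00000026981, chr2:24336853-24351494, plus strand) has forms of 534 coding bases, the length of the secreted antagonist, and 477, that of an intracellular one. Of the starts that RefSeq (GRCm38.p6) gives, the first of Il1rl1 lies at the start of a GENCODE form with 1011 coding bases and the second within a few bases of the start of one with 1701. The other Il1rl1 form with 1011 coding bases starts at chr1:40439776, also near the second RefSeq start. The other form with 1701 starts at chr1:40440628, so the RefSeq starts do not separate the 2 lengths. The first RefSeq start of Il1rn lies a few bases from the start of the form with 477. RefSeq gives 1 more Il1rn start close to the second, and its window overlaps the one shown and held no match to the motifs below. The 250 bases before the first and the second start, at chr1:40429320-40429569 and chr1:40439379-40439628 for Il1rl1 and at chr2:24336610-24336859 and chr2:24345041-24345290 for Il1rn, all on the plus strand, read 5′ to 3′ as follows. Capitals mark matches, on either strand, to the 4 motifs searched: TGAGTCA for AP-1, AGATAA for GATA factors, GGGA, any 4 bases and CC for kappaB, and TATAAA for the TATA box.
Il1rl1 start 1: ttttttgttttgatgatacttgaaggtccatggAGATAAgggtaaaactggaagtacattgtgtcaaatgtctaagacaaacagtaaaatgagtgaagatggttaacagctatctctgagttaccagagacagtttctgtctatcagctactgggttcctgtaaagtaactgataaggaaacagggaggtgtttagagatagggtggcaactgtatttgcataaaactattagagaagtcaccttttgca
Il1rl1 start 2: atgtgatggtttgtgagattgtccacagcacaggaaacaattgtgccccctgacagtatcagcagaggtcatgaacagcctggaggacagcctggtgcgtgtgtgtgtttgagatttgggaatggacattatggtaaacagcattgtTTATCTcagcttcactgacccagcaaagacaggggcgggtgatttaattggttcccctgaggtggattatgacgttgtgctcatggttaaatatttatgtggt
Il1rn start 1: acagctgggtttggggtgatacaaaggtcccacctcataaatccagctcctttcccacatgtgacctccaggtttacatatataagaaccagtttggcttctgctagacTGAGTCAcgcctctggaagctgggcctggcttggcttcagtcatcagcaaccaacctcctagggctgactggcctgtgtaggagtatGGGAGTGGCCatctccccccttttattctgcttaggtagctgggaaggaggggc
Il1rn start 2: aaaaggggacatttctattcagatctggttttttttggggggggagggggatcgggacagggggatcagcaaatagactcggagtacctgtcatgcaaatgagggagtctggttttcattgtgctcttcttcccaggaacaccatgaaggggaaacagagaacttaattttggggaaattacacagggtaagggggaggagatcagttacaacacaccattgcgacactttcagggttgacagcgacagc

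Both Il1rl1 windows held a GATA match, 217 and 103 bases before the start, as did 9.99% of all 32851 windows of this length. The first Il1rn window held an AP-1 match 141 bases and a kappaB match 54 bases before the start, motifs present in 4.46% and 17.6% of all windows, and the second held none of the 4. All 10 genes had a window, 15 in all. Those of Il1r1, Il1r2 and Il18bp held no match, Il1rap held kappaB, Il1a AP-1 and TATA, and Il1b, Il33 and Il18 TATA. No match overlapped another, and a match describes letters only, not a bound site.

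PCIF1 methylates mRNAs that begin with an adenosine after the cap, so the annotated first base was read as well. Of the 9 genes with a row, 8 had at least 1 coding transcript annotated to begin with A, and Il18bp had none, whereas 52.6% of 16615 genes with coding transcripts had one. Over transcripts the shares were closer, 12 of 32 (37.5%) against 28.4% of 49029. Annotated starts need not be those used in these cells, and methylation was not measured in these libraries.

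The libraries held 20258209 to 28227696 counts. WT replicate 3 stood apart from the other WT libraries: mitochondrial genes took 3.63% of its counts and 1.40% to 1.57% in the other 5, and its chi-square per gene against the other WT libraries was 88.5 and 105, compared with 10.2 between those. Among the CKO libraries this value was 2.89 between replicates 1 and 3, 10.7 between 1 and 2, and 10.2 between 2 and 3. Pcif1 itself, counted over the whole gene, was at 39.3 to 42.8 CPM (counts relative to the library total, scaled by the trimmed mean of M values) in WT and 37.8 to 39.7 in CKO (log2 fold change -0.085 ± 0.092 SE, adjusted p = 0.645, by the quasi-likelihood test of edgeR after Benjamini-Hochberg adjustment, as for every adjusted p given here), and such counts do not show whether the flanked exons were lost. Xist, the RNA of the inactive X chromosome, was at 232 to 443 CPM in WT and 0.722 to 1.79 in CKO, so the genotype and the Xist state of the cultures cannot be told apart in any result given here. With the sex of the mice not given, a difference in sex between the groups cannot be told apart from genotype either. The summed macrophage markers (15 genes) lay between 33748 and 36649 CPM in WT and between 34015 and 37220 in CKO, above the 12 mesenchymal markers in every library (11803 to 14960 and 15564 to 16385 CPM), although the labels name mesenchymal stem cells. The lysozyme gene Lyz2 alone gave 21980 to 26233 CPM of that sum, and the collagen genes Col1a1 and Col1a2 together gave 6711 to 12859 CPM of the mesenchymal sum. The other 14 macrophage markers summed to 10833 to 11695 CPM in WT and 10527 to 12217 in CKO, and the other 10 mesenchymal markers to 5092 to 5762 and 3453 to 3532, so the order of the lists depends on which of these leading genes are counted. Cxcl12 alone was at 2895 to 3335 CPM in WT and 498 to 607 in CKO. Vim, named after its value was seen, was at 1328 to 1701 CPM in WT and 2280 to 2309 in CKO. The lower CKO sum is thus not shared across these 10 markers. Marker sums without a leading gene, here and below, were computed after seeing the data. Fewer cells of a type and less RNA per cell cannot be told apart in such bulk RNA.

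Across the family, 3 of the 7 tested genes met the thresholds of the study (absolute log2 fold change of at least 1, adjusted p under 0.05): Il1rl1 was higher in CKO, and Il1rn and Il1r1 were lower. Of all genes tested, 3.53% were called, 1.03% as higher and 2.5% as lower in CKO. The CKO and WT libraries did not overlap for 4 of the 7, Il1rl1 and Il18 above and Il1rn and Il1r1 below, against 30.8% of all genes tested. Because the list was selected on this contrast, nothing is read from these shares. The median log2 fold change of the 7 genes was 0.019, beside 0.0017 over all genes tested.

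**Figure D1:**
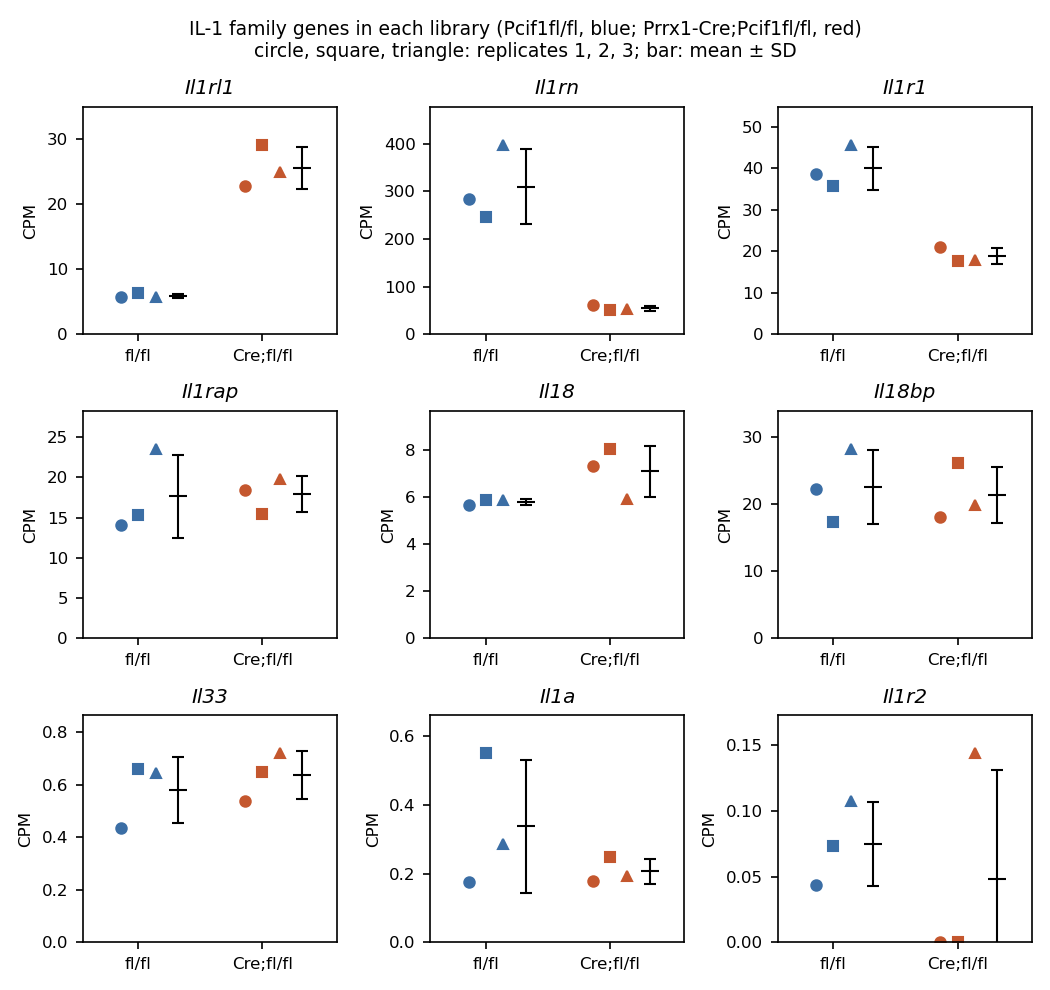
CPM (vertical axes, each from 0) of the 9 IL-1 family genes with a row, in WT (Pcif1fl/fl, blue) and CKO (Prrx1-Cre;Pcif1fl/fl, red) libraries, where circle, square and triangle are replicates 1, 2 and 3 and the bar is the mean ± SD (n = 3). The groups are apart for Il1rl1 (5.97 against 25.6 CPM), Il1rn (309 against 54.9) and Il1r1 (40.0 against 18.9), apart by a narrow margin for Il18, and mixed for the others.

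Il1rl1, which encodes ST2, stood at 5.81, 6.32 and 5.77 CPM in WT replicates 1 to 3 (133, 172 and 161 counts). In CKO replicates 1 to 3 it stood at 22.8, 29.2 and 24.9 CPM (507, 586 and 518 counts). Every CKO library was thus several times above every WT library, and the WT libraries lay close together, at 5.97 ± 0.307 CPM against 25.6 ± 3.23 (SD, n = 3). The log2 fold change was 2.10 ± 0.14 (SE), a 4.29-fold higher level, and it stayed between 2.00 and 2.18 under 13 other settings. WT replicate 3, the library that stands apart, did not differ from its group here, and without it the log2 fold change was 2.08. The counts add up reads of all annotated forms, so membrane-bound and soluble ST2 were not separated.

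Il1r1 (ENSMUSG00000026072, chr1:40225080-40317257), the signalling receptor of IL-1, went the other way. It was at 38.7, 35.7 and 45.6 CPM in the WT libraries and at 21.1, 17.6 and 18.0 in the CKO libraries. No CKO library reached the lowest WT value, and the means were 40.0 ± 5.12 and 18.9 ± 1.91 CPM (SD, n = 3). The log2 fold change was -1.08 ± 0.13 (SE), which corresponds to 2.12-fold more in WT. It rested close to the fold threshold: without WT replicate 3, where Il1r1 was highest, it was -0.97 and no longer called.

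The decoy receptor Il1r2 (ENSMUSG00000026073, chr1:40074079-40125231) was barely seen, with 1, 2 and 3 counts in the WT libraries and 0, 0 and 3 in the CKO libraries. Both groups were at or under 3 counts in every library, so no fold is given and no difference was detectable at this depth.

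The coreceptor Il1rap (ENSMUSG00000022514, chr16:26581704-26730117), which both ST2 and IL-1R1 need to signal, was at 14.1, 15.4 and 23.5 CPM in WT and at 18.5, 15.5 and 19.8 in CKO. The groups overlapped, and WT replicate 3 alone lay above all the others. Its log2 fold change was 0.019 ± 0.21 (SE, n = 3 against 3), and 0.29 without WT replicate 3. On the annotation, 4.86% of its exonic bases are shared with Gm20319 on the opposite strand, whose reads cannot be told apart where counting ignores strand.

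Il1rn, the IL-1 receptor antagonist, was the most abundant gene of the family and had the largest log2 difference of the 7. WT replicates 1 to 3 held 285, 246 and 397 CPM (6520, 6697 and 11080 counts), and CKO replicates 1 to 3 held 60.9, 50.7 and 53.0 CPM (1354, 1018 and 1102 counts). The lowest WT library was several times above the highest CKO library, and the CKO libraries were much closer to each other (54.9 ± 5.39 CPM) than the WT libraries were (309 ± 78.5, SD, n = 3). The log2 fold change was -2.49 ± 0.18 (SE), or 5.64-fold more in WT. Under 13 other settings it lay between -2.63 and -2.27, and the value nearest to 0 came from leaving out WT replicate 3, the highest library.

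Il1rn is a gene that macrophages express strongly, so it was also set against the macrophage markers of each library. Per 1000 CPM of those markers it held 7.77, 6.82 and 11.8 CPM in WT and 1.64, 1.48 and 1.56 in CKO. Lyz2 makes up most of that sum, and without it the values were 24.4, 22.7 and 36.2 in WT and 5.55, 4.15 and 5.04 in CKO. The groups did not overlap on either scale, the summed markers overlapped between the groups with and without Lyz2, and the part of the macrophages in the Il1rn difference was not tested. Of the 15 macrophage markers 1 was called, beside 3.53% of all genes tested: Cx3cr1, the fractalkine receptor, was higher in CKO (log2 fold change 1.24, adjusted p = 0.0293, edgeR's quasi-likelihood test). The Fc receptor gene Fcgr1, named after its value was seen, passed the adjusted p at a smaller fold (0.89, adjusted p = 0.00605). In CKO 5 of the 15 were above all WT libraries and 1 was below, where 30.8% of all genes tested did not overlap.

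Among the ligands, Il33 (ENSMUSG00000024810, chr19:29925114-29960718), the cytokine that ST2 binds, was close to the detection limit. It had 10, 18 and 18 counts in WT and 12, 13 and 15 in CKO, which is 0.437 to 0.662 and 0.540 to 0.722 CPM. The groups overlapped, and the log2 fold change was 0.12 ± 0.34 (SE). Il1a (ENSMUSG00000027399, chr2:129299610-129309972), an IL-1R1 agonist released from damaged cells, had 4, 15 and 8 counts in WT and 4, 5 and 4 in CKO. It did not pass the expression filter, and its higher WT total (27 against 13 counts) came largely from WT replicate 2. Of its exonic bases, 11.2% are shared with Gm14023 on the opposite strand.

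Il18 (ENSMUSG00000039217, chr9:50554827-50581840), a cytokine that is stored as an inactive precursor until caspase-1 cleaves it, was at 5.68, 5.88 and 5.88 CPM in WT and at 7.34, 8.06 and 5.92 in CKO. All CKO libraries lay above all WT libraries, but CKO replicate 3 by a narrow margin. The log2 fold change of 0.29 ± 0.16 (SE) did not reach the thresholds. Il18bp (ENSMUSG00000070427, chr7:102014885-102018690, minus strand), the soluble inhibitor of IL-18, was at 22.2, 17.3 and 28.2 CPM in WT and at 18.1, 26.1 and 19.9 in CKO. Its groups overlapped fully, with a log2 fold change of -0.081 ± 0.20 (SE) that was 0.12 without WT replicate 3. A small part of its exonic sequence, 2.64%, overlaps Numa1 on the opposite strand.

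Levels were divided by exonic length to make different genes roughly comparable. That length covers the exons of all annotated forms, such as 11.4 kb for Il1rap and 1.03 kb for Il18, so close ranks depend on the annotation. In WT the order of the family was Il1rn (55.9 CPM per kb), Il18bp (7.46), Il1r1 (6.29), Il18 (5.64), Il1rap (1.55), Il1rl1 (0.866), Il33 (0.201), Il1a (0.171) and Il1r2 (0.0393). In this order Il1r1 overlapped with both Il18bp and Il18 over the libraries, while the lowest Il18bp value lay just above the highest Il18 value, and Il33 and Il1a overlapped. In CKO the order was Il1rn (9.91 CPM per kb), Il18bp (7.06), Il18 (6.89), Il1rl1 (3.72), Il1r1 (2.97), Il1rap (1.58), Il33 (0.220), Il1a (0.105) and Il1r2 (0.0252). Here Il18bp and Il18 overlapped, and so did Il1rl1 and Il1r1. Per length, ST2 thus stood below both Il1rap and Il1r1 in every WT library and above Il1rap in every CKO library.

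Ratios of counts within a library do not depend on depth or scaling. The antagonist exceeded its receptor in every library: Il1rn counts were 7.35, 6.90 and 8.70 times those of Il1r1 in WT and 2.89, 2.88 and 2.95 times in CKO. The CKO ratios were nearly equal (2.91 ± 0.0338) and all below the WT ratios (7.65 ± 0.937, SD, n = 3), so the antagonist was lower in CKO by more than its receptor was. Both genes were selected as lower in this contrast, and an exact permutation test (two-sided) on 3 against 3 values has a smallest p of 0.1.

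The ratio of Il1rl1 to Il1r1 was 0.150, 0.177 and 0.126 in WT and 1.08, 1.66 and 1.39 in CKO. The mean of the CKO ratios was 9.10 times the mean of the WT ratios, and Il1rl1 counts outnumbered Il1r1 counts in the CKO libraries and not in the WT libraries. Against the shared coreceptor, Il1rl1 stood at 0.413, 0.411 and 0.245 in WT and at 1.24, 1.88 and 1.26 in CKO. These groups did not overlap either. By contrast, the Il18bp to Il18 ratio was 3.92, 2.94 and 4.80 in WT and 2.47, 3.24 and 3.36 in CKO, and these values were mixed.

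**Figure D2:**
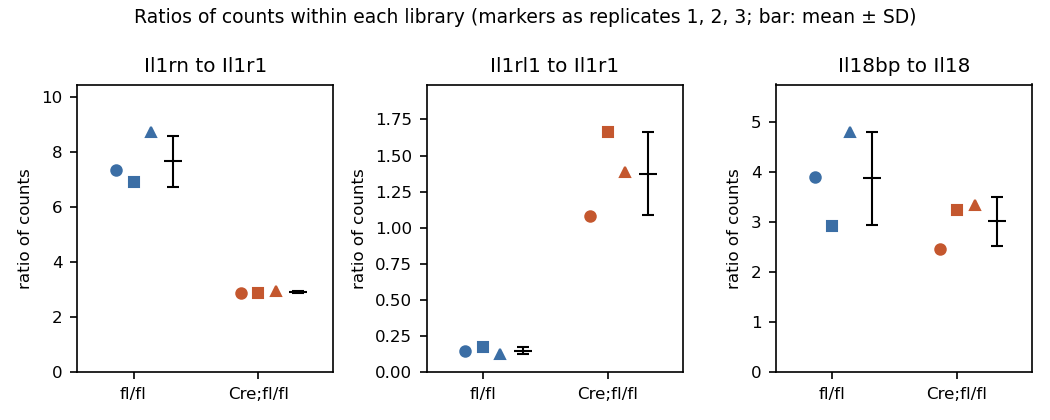
Ratios of counts within each library (vertical axes from 0) of Il1rn to Il1r1, Il1rl1 to Il1r1 and Il18bp to Il18 in WT (blue) and CKO (red), with circle, square and triangle for replicates 1, 2 and 3 and the bar at the mean ± SD (n = 3). The first ratio is 7.65 in WT and 2.91 in CKO, the second 0.151 and 1.38, and the third overlaps between the groups.

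Il1r2, Il1r1, Il1rl2, Il1rl1, Il18r1 and Il18rap lie one after the other on the same strand of chromosome 1, so genes with opposite differences are close neighbours. Il1r1 starts 204 kb before Il1rl1. Il1rl2, the IL-36 receptor, starts between them, 105 kb before Il1rl1, and was at 8.12, 7.83 and 8.57 CPM in WT and 9.68, 8.46 and 8.85 in CKO. Its groups overlapped (log2 fold change 0.14 ± 0.13 SE, adjusted p = 0.595), so a gene without a call stood between the lower and the higher one.

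Downstream of Il1rl1, Il18r1, the ligand-binding chain of the IL-18 receptor, starts right after the last Il1rl1 exon and had a single count, in CKO replicate 3. The next gene, Il18rap, encodes the signalling partner of that chain and starts 85.8 kb after the Il1rl1 start. It was at 3.28, 3.75 and 3.84 CPM in WT and at 7.47, 8.01 and 6.93 in CKO, with no overlap. It rose with a log2 fold change of 1.04 ± 0.15 (SE) and an adjusted p of 0.00507 (edgeR's quasi-likelihood test), and it fell just under the fold threshold without WT replicate 1 (0.98) or CKO replicate 2 (0.99).

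Beyond the receptor genes, the kinase gene Map4k4 on one side had a log2 fold change of -0.014 ± 0.082 (SE) and an adjusted p of 0.941. On the other side the ion exchanger gene Slc9a4 had -0.047 ± 0.40 (SE, adjusted p = 0.961) and the transporter gene Mfsd9 had -0.26 ± 0.23 (SE, adjusted p = 0.563). Of the 11 genes of the region, 7 were tested, with Il1rl1 and Il18rap called as higher and Il1r1 as lower, beside 1.03% and 2.5% of all genes tested. Il1rl1 and Il1r1 were selected on this contrast, so nothing is read from that count. Il1r2, Il18r1, Slc9a2 and Tmem182 were too low to test.

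**Figure D3:**
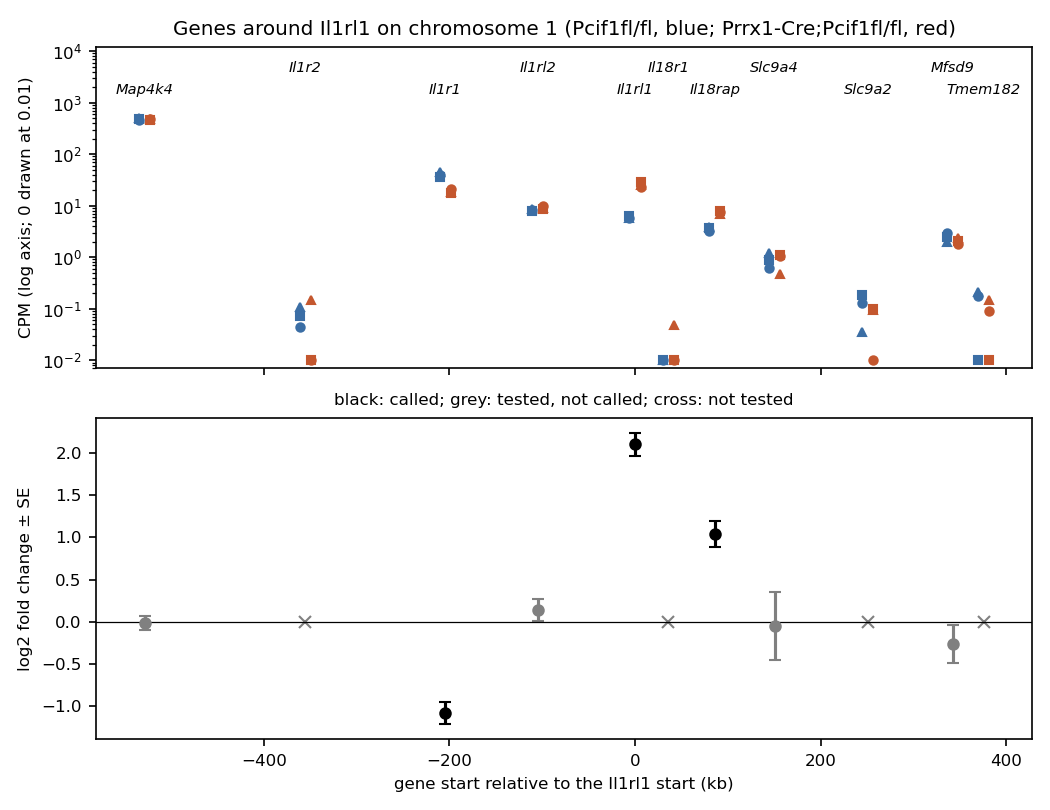
Genes around Il1rl1 by the distance of their start from the Il1rl1 start (horizontal axis, kb): above, CPM of each WT (blue) and CKO (red) library on a log axis with 0 drawn at 0.01; below, log2 fold change ± SE, CKO minus WT, with called genes in black, tested and uncalled genes in grey and untested genes as crosses. Il1r1 (-1.08) lies below 0, Il1rl2 near it, and Il1rl1 (2.10) and Il18rap (1.04) above it.

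The other ligands and receptors of the family were mostly low. Of 11 listed, 8 had a row and 3 were tested, of which Il18rap was called as higher, beside 1.03% of all genes tested. Sigirr, a receptor that dampens IL-1 signalling, had a log2 fold change of -0.38 ± 0.59 (SE, adjusted p = 0.758). The IL-38 gene Il1f10 had 17, 14 and 10 counts in WT and 3, 2 and 1 in CKO, and the IL-36 gamma gene Il36g had 5, 6 and 10 and 1, 0 and 2. Il1rapl1, of the same list, had 3, 4 and 11 counts in WT and 1, 1 and 2 in CKO. Il1f10, Il36g and Il1rapl1 were too low to test. Their libraries did not overlap, as was so for 30.8% of all genes tested. These genes and Sigirr were named after their values were seen.

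The genes that process these cytokines, among them caspase-1, inflammasome sensors, gasdermin D and calpains, were tested in full (13 genes). edgeR called 0 of them, beside 3.53% of all genes tested, and DESeq2 and limma-voom called 0 as well. In edgeR's test 3 had an unadjusted p under 0.05. The median log2 fold change of the 13 was 0.10. The values farthest from 0 belonged to the inflammasome sensor Nlrp3 (0.39, adjusted p = 0.0913), its adaptor Pycard (0.32, adjusted p = 0.146) and the calpain Capn2 (0.32, adjusted p = 0.053). In these 3 of the 13 genes the CKO libraries lay above the WT libraries, where 30.8% of all genes tested did not overlap. These genes were named after their values were seen.

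The signalling chain below the receptors gave the same count. Of its 26 genes, from MyD88 and the IRAK kinases to the NF-kB subunits, 0 were called by edgeR, DESeq2 or limma-voom. Over all genes tested, edgeR called 3.53%. In edgeR's test 4 of the 26 had an unadjusted p under 0.05, and the median log2 fold change of the 26 was -0.016. Myd88, the adaptor of all these receptors, was at -0.063 (adjusted p = 0.736). Irak3, an inhibitory member of the kinase family, had the lowest value, with 25.6, 29.0 and 47.7 CPM in WT and 23.8, 21.7 and 19.2 in CKO. Its log2 fold change of -0.66 ± 0.23 (SE, adjusted p = 0.131) did not pass, and WT replicate 3 was far above the rest. Both genes were named after their values were seen.

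Among 30 known NF-kB target genes, 24 were tested, with 4 higher and 1 lower in CKO, where 1.03% and 2.5% of all genes were. Their median log2 fold change was -0.043. In edgeR's test 16 of the 24 had an unadjusted p under 0.05. The CKO and WT libraries did not overlap for 15, with CKO above in 8 and below in 7, against 30.8% of all genes tested. The chemokines Ccl2 and Ccl7 attract monocytes. The chemokine gene Ccl2 rose from 12.1 ± 1.43 to 56.4 ± 1.64 CPM (log2 fold change 2.22, adjusted p = 5.23e-05), and its neighbour Ccl7 from 16.6 ± 3.83 to 52.5 ± 2.08 (1.66, adjusted p = 0.000614). Ptgs2, the inducible cyclooxygenase, rose from 4.78 ± 1.38 to 21.4 ± 4.12 CPM (2.15, adjusted p = 0.00124). The cytokine gene Lif rose from 7.48 ± 0.705 to 15.2 ± 0.937 CPM (1.02, adjusted p = 0.0027), but missed the fold threshold without WT replicate 2 (0.95) or CKO replicate 2 (0.99).

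Lcn2, which encodes the iron-carrier protein lipocalin-2, was the NF-kB target that fell, from 41, 24 and 36 counts in WT to 0, 0 and 2 in CKO. The WT to CKO ratio of its summed counts, scaled to library size, was 40.9, with an exact 95% interval of 11.0 to 342 for counting error. Both CKO counts came from CKO replicate 3: without it the ratio was at least 18.3, against a floor of 3 counts over the group, and without CKO replicate 1 it was 26.5 (7.14 to 222). At any fold change, 5 of the 24 targets were higher and 3 were lower at an adjusted p under 0.05, as were 2.88% and 4.51% of all genes tested. The added ones were Csf1, the macrophage growth factor (log2 fold change 0.66, adjusted p = 0.00277), the adhesion molecule Vcam1 (-0.52, adjusted p = 0.0216) and the inhibitor gene Nfkbie (-0.58, adjusted p = 0.0192), named after their values were seen. Il6, a common readout of IL-1 signalling, had 3, 4 and 6 counts in WT and 7, 4 and 6 in CKO and was too low to test, and it too was named outside the rule. The targets did not share a direction, and the 4 lists of family, processing, signalling and target genes together held 66 tested genes, of which 5 were called as higher and 1 as lower, beside 1.03% and 2.5% of all genes tested.

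**Figure D4:**
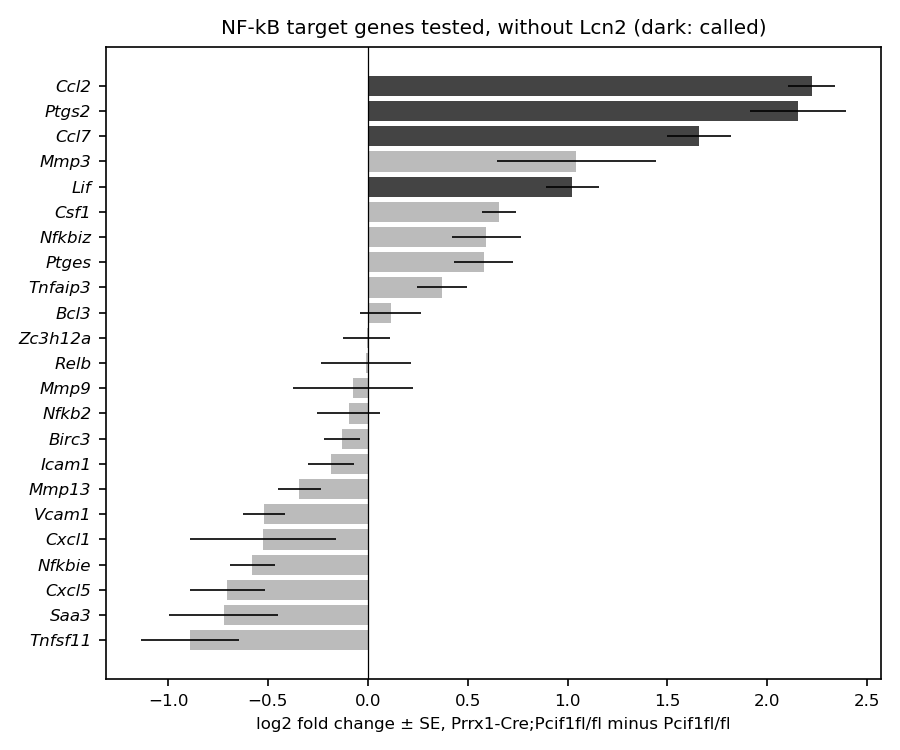
Log2 fold change ± SE (horizontal axis, CKO minus WT) of the NF-kB target genes that were tested, without Lcn2, which is at 0 counts in 2 of the CKO libraries; dark bars are called genes. Ccl2 (2.22), Ptgs2 (2.15), Ccl7 (1.66) and Lif (1.02) are the dark bars, and the other genes lie on both sides of 0.

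The genes whose pattern over the 6 libraries was nearest to that of Il1rl1 were sought among 12634 genes with a mean of at least 1 CPM, by the root mean square difference of centred log2 CPM. They were Ccl2 (0.176 on the log2 scale), the transcription factor gene Pax9 (0.181), the matrix protein gene Tnn (0.194), the predicted gene Gm6377 (0.219) and the interferon-inducible GTPase gene Tgtp1 (0.275). Tnn was at 23.5, 25.6 and 24.1 CPM in WT and 119, 96.4 and 108 in CKO, and Pax9 was at 0.699 to 0.845 and 3.98 to 4.43 CPM. These genes were picked for their likeness, and the choice leaned on single libraries: without WT replicate 3, 1 of the 5 was again among the nearest.

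ST2 is best known on cells other than MSCs, so markers of those cells were read beside Il1rl1. Of 8 mast cell and basophil markers with a row, 3 were tested: the basophil protease gene Mcpt8 rose (mean 3.97 to 11.8 CPM, log2 fold change 1.58, adjusted p = 0.00141) and the stem cell factor receptor gene Kit fell (mean 2.86 to 0.735 CPM, -1.95, adjusted p = 0.0171), beside 1.03% higher and 2.5% lower calls over all genes. The mast cell and basophil markers Cpa3, Mcpt4, Cma1 and Ms4a2 had 0 to 2 counts in every library. The summed list was at 8.09 to 9.04 CPM in WT and 13.0 to 15.5 in CKO, which did not overlap. Mcpt8 alone made it higher in CKO, since the other 7 genes summed to 4.06 to 5.34 CPM in WT and 2.34 to 2.93 in CKO. The part of these cells in the Il1rl1 difference was not tested.

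Among 8 markers of T cells and type 2 lymphoid cells, 3 were tested and Thy1, which mesenchymal cells express too, rose (log2 fold change 1.52, adjusted p = 0.0113), beside 1.03% of all genes tested, a share that also stands against the neutrophil list. Gata3, Il5 and Il13, which define type 2 lymphocytes, had 0 to 7 counts per library, and the summed list was at 10.2 to 21.1 CPM in WT and 21.9 to 26.7 in CKO. Without Thy1 these sums overlapped (7.60 to 16.4 and 11.7 to 17.4 CPM). Of 7 neutrophil markers, 2 were tested and 1, S100a8, rose (mean 0.469 to 1.28 CPM, log2 fold change 1.45, adjusted p = 0.0394), while Camp, the other one, had a log2 fold change of -0.59 (adjusted p = 0.608). The summed list was at 1.00 to 1.14 CPM in WT and 1.44 to 1.98 in CKO, and without S100a8 the sums overlapped (0.480 to 0.845 and 0.337 to 0.585 CPM). Of the 9 endothelial markers, edgeR, DESeq2 and limma-voom called 0, where edgeR called 3.53% of all genes tested. In edgeR's test 2 had an unadjusted p under 0.05. The sum of the 9 markers overlapped between the groups (34.7 to 46.4 and 32.4 to 36.7 CPM). The mesenchymal markers differed within the list, with Thy1 higher and Eng, Lepr and Cxcl12 lower among the 12 tested (1.03% and 2.5% over all genes). The libraries did not overlap for 11 of them, with CKO above in 6 and below in 5, against 30.8% of all genes tested. At any fold change 4 were higher and 4 lower at an adjusted p under 0.05, beside 2.88% and 4.51% of all genes. The part of the mesenchymal markers in the results above was not tested.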

How the data were processed

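Poly(A) RNA from 3 WT and 3 CKO MSC libraries was sequenced by the authors, who mapped reads to mm10 with HISAT2, per the study's methods. The deposited values are raw counts of reads per gene, which the authors did not normalize, and the counting tool, annotation and use of strand are not given in the sources used here. Of 20163 rows, 92 repeat an Ensembl ID with identical counts, leaving 20071 IDs. Gene positions, exonic lengths and overlaps were taken from GENCODE M21, and promoter windows from RefSeq. Groups and replicate numbers came from the sample titles. The quasi-likelihood test of edgeR 4.0.16 (R 4.3.3, filterByExpr, TMM factors, no covariate) was fitted to all 13733 genes that passed the filter, and p-values were adjusted by the Benjamini-Hochberg method. The SE of a log2 fold change is its size over the root of its F value. Called genes had an adjusted p under 0.05 and at least 1 log2 unit of difference in either direction. Fits were tested on simulated data. Intervals and floors cover counting error only, and PCR duplicates were not separated from molecules.

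The members and all lists were chosen with earlier results of these data known. Named genes were all members, the called genes of each other list (at most the 5 with the smallest p), every tested gene of the chromosome 1 region, the 5 genes most like Il1rl1, and Pcif1 and Xist. Genes named outside this rule, after their values were seen, are stated as such in the text or are the uncalled markers Camp, Cpa3, Mcpt4, Cma1, Ms4a2, Gata3, Il5, Il13, Lyz2, Col1a1 and Col1a2. Likeness used log2 CPM with a prior count of 2. Alternatives were DESeq2 1.42.0, limma-voom (limma 3.58.1), RLE or total-count scaling, other filters, a replicate block, any fold change, a prior count of 0.5, and leaving out each library.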

Additional observations from a re-analysis of the deposited data

How the results depend on the processing

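With 3 libraries per group, calls near the fold threshold moved with single libraries. Il1rl1 and Il1rn stayed called under all 13 alternative fits, and no called gene of the family or pathway lists changed direction under any of them. Leaving out 1 library at a time gave 89 to 229 genes higher in CKO (142 in all libraries) and 253 to 385 lower (343), 1 to 2 family members lower (2, with Il1r1 lost at -0.97 without WT replicate 3), 3 to 5 pathway genes higher (5), 1 to 3 lower (1), 5083 to 6774 genes without overlap (4228) and 1 to 5 of the same 5 genes nearest to Il1rl1. The highest counts of genes came without WT replicate 3 (229, 385 and 6774; 3 pathway genes lower), and the fewest pathway genes higher without CKO replicate 2 (Il18rap and Lif lost). The fewest genes higher came without CKO replicate 3 (89), with 90 and 91 without CKO replicates 2 and 1, and the nearest genes shared were 2 without WT replicate 1, 1 without WT replicate 3 and 3 without CKO replicate 2. At any fold change, 396 genes were higher, 620 lower and 3 pathway genes lower. Il33, Il1rap and Il18bp, none of them called, changed sign among the alternatives (-0.039 to 0.23, -0.12 to 0.29 and -0.25 to 0.12). Same-numbered libraries did not deviate together (correlations 0.0554, -0.045 and -0.013 over 13733 genes), so the numbers were not taken to pair samples. With the replicate block, 126 genes were higher and 326 lower, the family kept 1 and 2 calls and the pathway lists 5 and 1, the log2 fold change of Il1r1 was -1.08, and S100a8 of the marker lists lost its call. Depth left Il1a and Il1r2 untested.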
